A study of Homo sapiens with 20 samples.

Results

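Antisense noncoding RNAs are named after the gene on the other strand, with the ending -AS and a number. In the 2 deposited tables, 979 of 26485 rows carry such a symbol, and the same 979 stand in both. They were chosen by symbol alone, so no measured value entered the choice. Of these rows, 976 have a noncoding RefSeq accession and 3 a coding one, and 961 have a row for the gene named before the ending, here called the sense gene. In 6 of them the tables place both rows on the same strand, OR2A1-AS1 being the highest of these. The cells were wild-type HCT116, a colorectal carcinoma line with functional p53, and the RNA came from isolated nuclei after depletion of ribosomal RNA, in strand-marking libraries. All cells were electroporated, with water or with a peptide at 10 µM, and then kept for 3 h in 0.1% DMSO, alone or with 10 µM Nutlin-3a. Nutlin-3a frees p53 from its inhibitor MDM2, and the peptide, labelled Peg6, is a bivalent stapled peptide made to block the binding of p53 to the Mediator complex. Wells with peptide also held 200 nM of it in the medium. Each of the 4 conditions (DMSO with water, DMSO with peptide, Nutlin-3a with water, Nutlin-3a with peptide) had 2 libraries in experiment 1 and 3 in experiment 2, which makes 20 libraries. The labels do not say that libraries came from separate cultures, so p-values measure only the spread between these samples.

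Antisense transcripts arise in several ways. Many start at the same CpG-rich promoter as the sense gene and run away from it, since such promoters often fire in both directions. Others start inside the sense gene or beyond its end and run back across it. Some act on their neighbour or in trans as scaffolds or as hosts of small nucleolar RNAs, and for most no role is known. Many are kept in the nucleus or turned over there quickly, which makes nuclear RNA a suitable material for counting them.

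Detected and undetected antisense rows differed in the CpG content at their starts, so 7 start windows are shown, chosen after their values were seen. Each runs from 250 bases before the start to 50 bases after it, on the strand of the antisense RNA, 5′ to 3′, from RefSeq on GRCh38.p14. Capitals mark each CpG. The first 4 belong to rows with reads in all 20 libraries. PCBP1-AS1 (chr2:70086966-70087265, minus strand, 29 CpG) and TMEM254-AS1 (chr10:80079144-80079443, minus strand, 21 CpG) run away from their sense genes as the deposited tables place them. SBF2-AS1 (chr11:9758043-9758342, plus strand, 36 CpG) starts beyond the end of SBF2, and ELFN1-AS1 (chr7:1742261-1742560, minus strand, 21 CpG) lies inside ELFN1.
PCBP1-AS1: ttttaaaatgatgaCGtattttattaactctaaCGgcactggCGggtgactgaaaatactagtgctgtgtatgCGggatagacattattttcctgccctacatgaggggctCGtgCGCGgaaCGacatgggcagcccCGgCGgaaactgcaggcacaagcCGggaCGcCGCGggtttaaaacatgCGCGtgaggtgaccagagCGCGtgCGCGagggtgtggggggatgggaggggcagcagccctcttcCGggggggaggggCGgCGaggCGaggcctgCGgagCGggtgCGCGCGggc
TMEM254-AS1: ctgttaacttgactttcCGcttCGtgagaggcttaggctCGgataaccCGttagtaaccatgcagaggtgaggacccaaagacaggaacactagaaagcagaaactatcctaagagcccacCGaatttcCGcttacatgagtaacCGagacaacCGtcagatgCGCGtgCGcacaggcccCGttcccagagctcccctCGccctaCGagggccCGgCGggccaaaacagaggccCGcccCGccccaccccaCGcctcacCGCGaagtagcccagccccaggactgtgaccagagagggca
SBF2-AS1: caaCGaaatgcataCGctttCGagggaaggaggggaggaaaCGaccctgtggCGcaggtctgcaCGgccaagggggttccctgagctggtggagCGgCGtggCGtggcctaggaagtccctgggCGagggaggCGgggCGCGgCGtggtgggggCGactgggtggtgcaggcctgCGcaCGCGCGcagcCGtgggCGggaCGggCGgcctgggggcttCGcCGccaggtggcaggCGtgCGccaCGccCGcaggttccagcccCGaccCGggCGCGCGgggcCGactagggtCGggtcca
ELFN1-AS1: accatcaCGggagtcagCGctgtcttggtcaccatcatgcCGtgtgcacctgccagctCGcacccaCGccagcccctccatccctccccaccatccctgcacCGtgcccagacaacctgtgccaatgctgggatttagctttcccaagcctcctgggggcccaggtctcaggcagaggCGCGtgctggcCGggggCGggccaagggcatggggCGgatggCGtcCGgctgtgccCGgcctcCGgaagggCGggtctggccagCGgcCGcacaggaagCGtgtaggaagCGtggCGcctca

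The other 3 windows belong to rows that lie inside a well-transcribed sense gene and had 2 to 6 reads over the 20 libraries together. LPP-AS1 (chr3:188568617-188568916, minus strand, 3 CpG) had 5 reads, HCFC1-AS1 (chrX:153968515-153968814, plus strand, 2 CpG) had 2, and FAS-AS1 (chr10:88992926-88993225, minus strand, 1 CpG) had 6. None of the 7 windows overlaps an exon of a coding gene in GENCODE v29. Those of TMEM254-AS1, ELFN1-AS1, LPP-AS1, HCFC1-AS1 and FAS-AS1 lie in introns of the sense gene there. TMEM254 starts at base 80078646 in GENCODE, so in that annotation TMEM254-AS1 overlaps it.
LPP-AS1: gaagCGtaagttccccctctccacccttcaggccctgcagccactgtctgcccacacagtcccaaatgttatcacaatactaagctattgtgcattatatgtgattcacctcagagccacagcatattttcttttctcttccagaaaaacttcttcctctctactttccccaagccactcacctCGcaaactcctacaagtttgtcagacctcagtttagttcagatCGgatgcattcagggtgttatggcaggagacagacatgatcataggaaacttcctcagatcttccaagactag
HCFC1-AS1: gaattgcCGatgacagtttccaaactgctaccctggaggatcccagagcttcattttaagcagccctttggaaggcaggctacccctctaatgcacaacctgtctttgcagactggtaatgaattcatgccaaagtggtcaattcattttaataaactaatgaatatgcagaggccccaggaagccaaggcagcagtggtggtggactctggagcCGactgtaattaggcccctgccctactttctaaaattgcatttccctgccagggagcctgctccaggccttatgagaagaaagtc
FAS-AS1: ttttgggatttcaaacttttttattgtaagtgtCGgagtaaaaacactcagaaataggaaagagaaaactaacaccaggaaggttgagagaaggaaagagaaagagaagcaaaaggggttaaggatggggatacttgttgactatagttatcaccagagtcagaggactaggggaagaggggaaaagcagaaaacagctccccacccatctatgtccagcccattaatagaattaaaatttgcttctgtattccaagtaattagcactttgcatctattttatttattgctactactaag

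Start windows were found for 616 of the 979 antisense rows, 538 of them at the start used in the tables within 1 base. An antisense row is called detected here where its mean over the 20 libraries was at least 0.5 RPM, that is, reads per 1000000 reads in rows. The median window held 22 CpG in the 229 detected antisense rows and 6 in the 387 others. Of antisense rows with 0 to 4 CpG, 17.1% were detected (33 of 193), and of those with 20 or more, 56.4% (133 of 236). All other rows of the tables showed the same order at a higher level, with 27.5% detected at 0 to 4 CpG and 87.1% at 20 or more. At each CpG count a smaller share of antisense rows than of other rows was thus detected. The letters TATAAA, searched on both strands, were in 6.55% of windows of detected antisense rows and 10.9% of the others, beside 11.9% of all 27305 windows. Among other rows of the tables they were in 5.95% of windows of detected rows and 17.7% of undetected ones. The consensus decamer of p53 (searched on both strands, since it is its own reverse complement) was in 26 windows of detected antisense rows, or 11.4%, beside 5.25% of detected other rows and 6.54% of all windows. It was in 5.7% of windows of undetected antisense rows and 7.66% of those of undetected other rows. Over all 616 antisense windows the share was 7.79%. A match to these letters is a description and not a bound site.

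**Figure D1:**
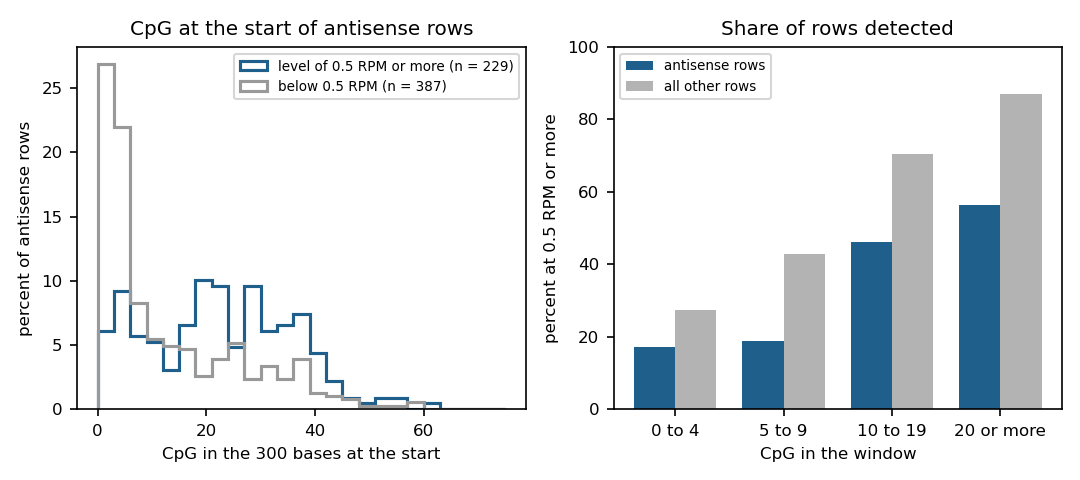
Left, CpG per start window of 300 bases (x axis) against the percent of antisense rows in each bin (y axis), for 229 rows at 0.5 RPM or more and 387 below. Right, percent of rows at 0.5 RPM or more (y axis) by CpG in the window (x axis), for antisense rows and all other rows; the antisense bar is the lower one in all 4 groups, 17.1% to 56.4%.

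The libraries held 18787172 to 63896604 reads in rows, and antisense rows took 0.264% to 0.445% of them. The library of Nutlin-3a with water, experiment 1 replicate 2, was the lowest at 0.264%, and the 4 libraries numbered 2 in experiment 2 had 0.278% to 0.305%. Between 598 and 804 antisense rows had a read in a library. Of the epithelial markers fixed for these cells, KRT8 (1340 RPM), KRT18 (621 RPM) and EPCAM (228 RPM) were high, whereas VIL1 (0.193 RPM) and CDX1 (0.00782 RPM) were near 0. Of the epithelial list 6 of 10 passed 0.5 RPM, its summed level being 1532 to 3709 RPM per library. Of the blood list 1 of 5 did (0.188 to 7.92 RPM summed, PTPRC at 0.0262), of the fibroblast and endothelial list 3 of 6 (12.1 to 93.3 RPM, mostly COL1A1) and of the liver and neuron list 2 of 5 (11.5 to 468 RPM, mostly SYT1). Their part in the results was not tested.

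Most antisense rows were low. Their median level, as the mean of the 2 experiments, was 0.197 RPM, beside 2.28 RPM over all rows. Of all 979, 50 rows had no read in any library, 451 had a read in all 20, and 378 (38.6%) reached the mean of 0.5 RPM and were tested, beside 60.3% of all rows. Among the tested rows the median was 2.37 RPM for antisense and 20.4 RPM for all. Only 72 antisense rows were at 10 RPM or more and 5 at 100 RPM or more, and the 12 highest held 45.5% of all antisense reads.

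Whether the counting kept the strands apart bears on every value here, and the tables answer it in part. Of antisense rows nested inside a sense row of at least 20 RPM, 79 could be compared per kb of span. The median nested row had 0.00778 of the sense density, 71 of 79 were under 0.1 and 41 under 0.01. HCFC1-AS1, for example, had 2 reads in all beside HCFC1, a cell cycle cofactor, at 164 RPM, a ratio per kb of 0.000262. Only UNC5B-AS1 and LMLN-AS1 exceeded the sense density in this set. Few reads of the sense strand can thus have been counted to most of these rows. The sense density is a mean over exons and introns, however, and a nested row in an intron may lie below it for that reason also. Low ratios alone therefore do not settle how strand was used. Levels under about 0.01 of the sense density cannot be told apart from a small leak of the other strand.

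LRRC75A-AS1 (chr17:16438987-16442026, hg38, plus strand) was the highest antisense row. It is a host of small nucleolar RNAs, and in experiment 1 its levels were 189.6 and 188.5 RPM under DMSO with water, 192.5 and 199.4 with peptide, 187.7 and 126.5 under Nutlin-3a with water, and 217.8 and 195.1 with both. In experiment 2 they were 1441, 522 and 801 RPM under DMSO with water, 1365, 498 and 973 with peptide, 1304, 438 and 830 under Nutlin-3a with water, and 1343, 480 and 801 with both. All 12 libraries of experiment 2 lay above all 8 of experiment 1, and within experiment 2 replicate 2 was the lowest in every condition. The rows SNORD49A, SNORD49B and SNORD65 lie inside it on the same strand and held reads equal to 9.14%, 7.34% and 10.0% of its own in experiment 2, so they may be counted in both.

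ZFPM2-AS1 on chromosome 8 came second, at 399 RPM in experiment 1 and 228 RPM in experiment 2. Its levels ran from 166 to 485 RPM in experiment 1, the lowest in the Nutlin-3a with water library replicate 2. In experiment 2 replicates differed more than conditions, with 136, 57.0 and 464 RPM in the 3 libraries of DMSO with water. Its sense gene ZFPM2, a cofactor of GATA factors, was at 1.09 RPM.

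The next 3 rows lie in duplicated parts of the genome, so their reads may be split with near-identical copies. OR2A1-AS1 (chr7:144238573-144355718) had 128 and 195 RPM in experiments 1 and 2, and the row ARHGEF34P, inside it on the same strand, held reads equal to 66.9% and 68.1% of its own. NUTM2A-AS1 (chr10:87238667-87342558) had 217 and 54.6 RPM. NUTM2B-AS1 (chr10:79691500-79826594) had 246.8 RPM in experiment 1 and 12.99-fold less in experiment 2, but the 2 tables use another isoform for it, so its experiments are not on the same span.

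THAP9-AS1 (chr4:82893452-82900916) starts head to head with THAP9, a gene derived from a transposase. It had 13.7 to 39.0 RPM in experiment 1 and 102 to 235 RPM in experiment 2, and its lowest value was again the Nutlin-3a with water library replicate 2. WAC-AS1 (chr10:28519917-28532354) runs away from WAC, which codes for a regulator of histone H2B ubiquitination, and had 18.4 to 37.8 RPM in experiment 1 and 62.3 to 81.5 RPM in experiment 2. FGD5-AS1 (chr3:14942779-14947505) had 30.4 and 110 RPM, while FGD5, a guanine nucleotide exchange factor of endothelium, was at 0.244 RPM.

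PCBP1-AS1 (chr2:69962263-70087015) had 121 and 56.9 RPM, PSMA3-AS1 (chr14:58265365-58298137) 48.8 and 73.9, TPT1-AS1 (chr13:45341345-45391483) 46.3 and 58.5, and SLFNL1-AS1 (chr1:41014590-41043890) 82.8 and 13.1. Of the 12 highest rows, 8 had no overlap between the libraries of the 2 experiments, 3 of them higher in experiment 1 and 5 in experiment 2, where 42.6% of all tested rows had no overlap. Over all tested antisense rows, 76 were higher in all 8 libraries of experiment 1 (10.3% of all tested rows were) and 48 in all 12 of experiment 2 (32.3% of all tested rows were).

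**Figure D2:**
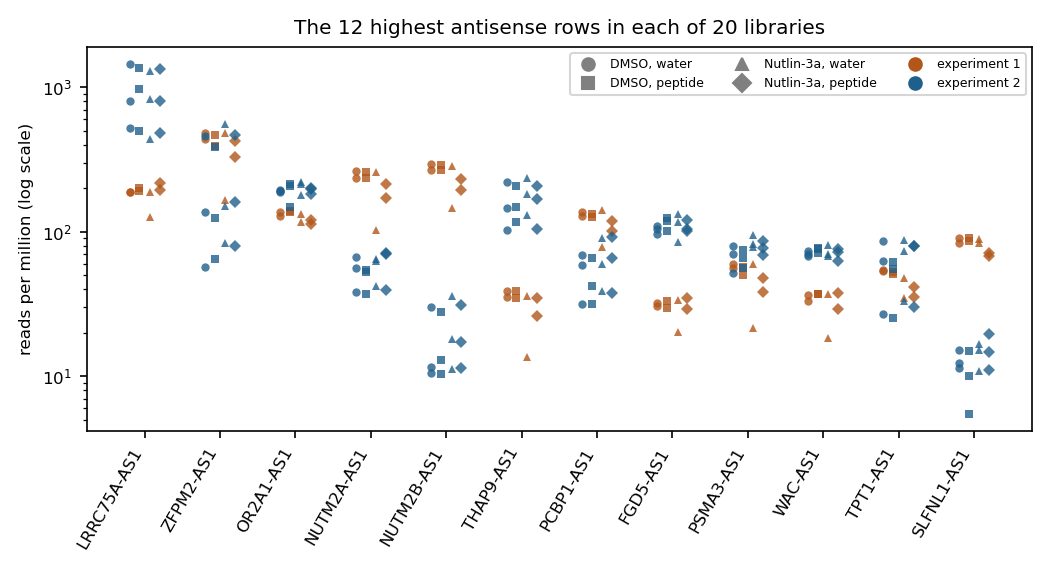
Level in RPM (y axis, log scale) of the 12 highest antisense rows (x axis) in each of 20 libraries; marker shape gives the condition and colour the experiment. The experiments separate more than the conditions: LRRC75A-AS1 is at 126.5 to 217.8 RPM in experiment 1 and at 438 RPM or more in experiment 2.

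The place of an antisense row relative to its sense gene went with its level. Rows nested inside the sense row were the largest class, 220 rows, and 13.2% of them were detected. Divergent rows, which start within 5 kb of the sense start and run away without overlap, numbered 216, and 51.9% were detected. Detection was 38.5% of 169 head-to-head rows, which overlap the sense gene at their starts, 54.2% of 118 tail-to-tail rows, which overlap at their ends, and 33.3% of 171 rows further apart. The smaller classes had the highest shares. These were 70.8% of 24 rows that face the sense end without overlap, 66.7% of 6 on the same strand and 59.5% of 37 that hold the sense row. In the windows at the start, divergent rows had a median of 27 CpG, head-to-head rows 19, tail-to-tail rows 17, rows further apart 10 and nested rows 3.

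The sense row was tested in 742 pairs. Among them are 3 pairs on the same strand, which also count in the 325 pairs below. Per kb of span, introns included, the median antisense row of these had 0.0664 of the sense level, and 95 of 742 were above it. The median was 0.0262 for nested rows, 0.0434 both for head-to-head rows and for rows further apart, 0.105 for tail-to-tail rows and 0.130 for divergent rows. In 325 of these pairs the antisense row also passed 0.5 RPM, a filter that favours high ratios, and there the median was 0.211, with 74 above the sense row. Over the 325 pairs the lower quartile of the ratios was 0.0551 and the upper 0.860. The median over the same pairs was 0.115 to 0.273 in single libraries.

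Nested rows had the widest gap between these counts. Over the 180 nested rows with a tested sense row the median ratio was 0.0262, whereas in the 23 whose antisense row also passed the filter it was 3.12, and 17 of these were above the sense row. The 23 were kept for their antisense level, so their ratios describe those rows and not nested rows at large. PAX8-AS1, inside the gene of the thyroid and kidney factor PAX8, had 5.62 RPM per kb beside 0.0805 for PAX8. VPS9D1-AS1 had 4.57 beside 0.320, and ELFN1-AS1, whose CpG-rich window is printed above, 2.83 beside 0.0818. DLGAP1-AS1 and DLGAP1-AS2 had 2.09 and 2.12 beside 0.0105. PRC1-AS1, inside the gene of the spindle protein PRC1, went the other way, with 0.140 beside 5.59.

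A start shared with the sense gene did not give equal levels. Of 143 antisense rows starting within 0.3 kb of the sense start on the other strand, both rows were tested in 69. Their ratio per kb ran from 0.000911 (RPL34-AS1, beside the ribosomal protein gene RPL34) to 44.9 (THAP9-AS1), with a median of 0.192. Of the 69, 25 were under 0.1 and 12 above 1. TPT1-AS1, beside the growth-related gene TPT1, had 0.00360 of the sense density in the median library of experiment 2 and 0.0276 in that of experiment 1. WAC-AS1, whose start lies 1.14 kb from that of WAC, was above WAC in all libraries, from 1.10 to 1.42 times in experiment 1 and 2.35 to 4.02 times in experiment 2.

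**Figure D3:**
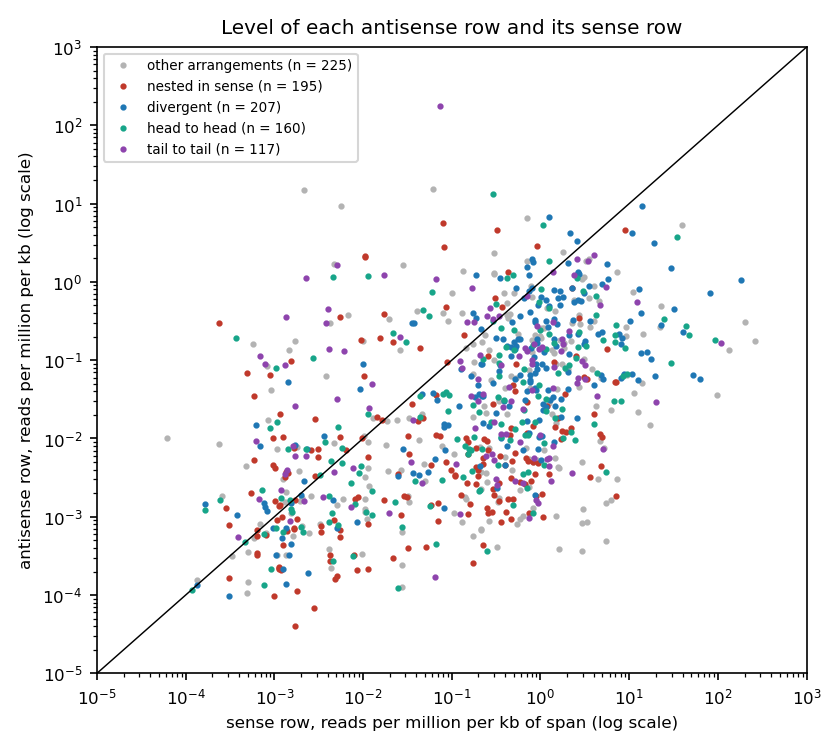
Level of each antisense row (y axis) against its sense row (x axis), both in RPM per kb of span on log scales, for pairs with reads in both rows; colours give the arrangement and the line marks equal levels. Most points lie below the line, and 74 of the 325 pairs with both rows tested lie above it.

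Antisense rows of developmental transcription factors were found by gene name, and 20 of 49 were detected. That list also takes PAXIP1-AS1 and PAXIP1-AS2, although PAXIP1 is a DNA damage adaptor. NR2F1-AS1 (33.6 RPM), PAX8-AS1 (29.9 RPM) and NR2F2-AS1 (16.8 RPM) led; NR2F1-AS1, NR2F2-AS1 and SOX9-AS1 have another isoform row in experiment 2. The 4 tested HOX rows without a sense row of their own were low, with HOXB-AS1 at 1.11 RPM, HOXA-AS2 at 0.791, HOXD-AS2 at 0.609 and HOXC-AS1 at 0.572. SOX9-AS1 had 2.86 RPM and 0.00632 of the density of SOX9, a factor of intestinal stem cells, while FEZF1-AS1 had 9.37 times that of FEZF1. FEZF1 itself had only 105 reads over all libraries, beside 26491 for SOX9, so that ratio rests on few reads.

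Of 53 antisense RNAs listed for a role described in the literature, 50 had a row and 33 were detected. Besides those above, GAS6-AS1 (33.6 RPM), EPB41L4A-AS1 (30.04 RPM), TTN-AS1 (29.4 RPM) and OIP5-AS1 (28.4 RPM) were among the highest. OIP5-AS1, also known as cyrano, had 20.5 RPM in experiment 1 and 36.4 RPM in experiment 2. CDKN2B-AS1, which crosses CDKN2B at the INK4 locus and is also known as ANRIL, had 14.5 RPM, and its median density was 0.441 of that of CDKN2B in experiment 1 and 0.0243 in experiment 2. ZEB1-AS1 had 1.02 RPM, and 1.46 times the density of ZEB1 in the median library of experiment 1 and 4.01 times in that of experiment 2, a factor of the mesenchymal state.

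Long antisense rows were higher in experiment 1 and short ones in experiment 2. Among the 95 tested antisense rows with the shortest spans, 0.825 to 4.48 kb, the median ratio of experiment 1 to experiment 2 was 0.557, and 19 of 95 were higher in experiment 1. Among the 95 with the longest, 46.1 to 541 kb, it was 2.43, and 75 of them were higher in experiment 1. Over all tested rows, split likewise into 4 groups by span, the medians went from 0.460 to 1.48. Across the 378 antisense rows Spearman's rho of the log ratio with span was 0.55, beside 0.49 over all tested rows, where rows share their libraries and are not independent. LMCD1-AS1, with a span of 281 kb, had 19.99 RPM in experiment 1 and 0.907 in experiment 2, and C2-AS1, with 7.25 kb, had 0.0711 and 1.31. In all, 49 antisense rows were over 4-fold higher in experiment 1 and 33 in experiment 2. Some of them, such as NUTM2B-AS1 and NR2F1-AS1, have another isoform row in experiment 2. The share of all tested rows past 4-fold is not given here, so these counts do not set antisense rows apart. The 2 experiments are separate tables, so no test was made between them.

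**Figure D4:**
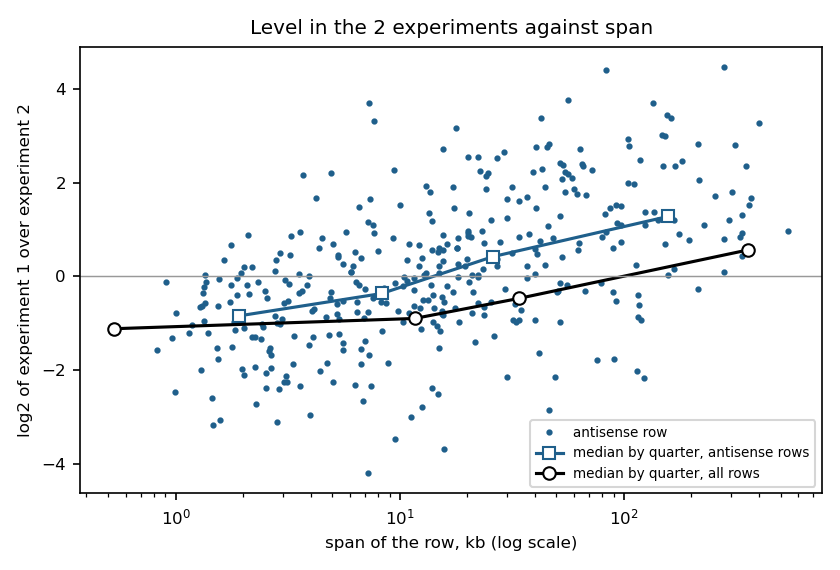
Log2 ratio of the mean level in experiment 1 to that in experiment 2 (y axis) against span in kb (x axis, log scale) for tested antisense rows, with medians in 4 groups by span for antisense rows and for all tested rows. The median of antisense rows goes from a ratio of 0.557 to 2.43.

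Nutlin-3a with water was compared with DMSO with water to ask what activation of p53 does to nuclear RNA. No antisense row passed limma's test at an adjusted p under 0.05, and no row of the whole table did (0% of 15958). At an unadjusted p under 0.05 there was 1 antisense row of 378 (0.265%), beside 0.589% of all rows. With limma-voom there was 1, beside 0.689% of all rows. The row of the first fit was higher under Nutlin-3a and that of limma-voom lower, so the 2 fits do not support each other here. With the replicate number as a block there were 24, or 6.35% beside 7.27%. Block and limma-voom together, added after seeing the data, called 0 antisense rows and 0.094% of all rows, with 32 antisense rows (8.47% beside 8.13%) at an unadjusted p under 0.05. The median log2 change of the antisense rows was 0.02 and that of all rows -0.02, but that of the antisense rows was -0.05 in experiment 1 and 0.08 in experiment 2. Of the antisense rows, 215 lay above 0 and 163 below, that is, 56.9% above beside 45.0% of all rows. The median SE of an antisense row was 0.22, and 0.13 with the block. A call over 15958 rows takes a change of several SE, so changes well above these sizes could also go uncalled. The sense row FAS, at a log2 change of 0.84 with an SE of 0.23, was not called. The lack of calls thus does not show that such changes are absent. SEs given with single rows are from the fit without the block.

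Antisense rows that were higher in all 5 same-numbered pairs of libraries numbered 17, or 4.50%, beside 3.07% of all rows, and 3 were lower in all 5 (0.794% beside 3.89%). By p-value the first were MATN1-AS1, LHX4-AS1, SLC25A21-AS1, CDC37L1-AS1 and CBR3-AS1, with log2 changes of 0.26 to 0.34. LHX4-AS1, which overlaps the end of the pituitary factor gene LHX4, had 8.06 and 7.54 RPM under DMSO and 8.49 and 8.44 under Nutlin-3a in experiment 1. In experiment 2 it had 3.804, 4.67 and 4.70 under DMSO and 5.28, 5.54 and 5.91 under Nutlin-3a. The groups did not overlap in either experiment, and the log2 change was 0.27 (SE 0.14, adjusted p = 1 by limma, 0.665 with the block). MATN1-AS1 had 1.63 and 2.00 RPM under DMSO and 2.64 and 2.19 under Nutlin-3a in experiment 1, and 0.801, 0.945 and 2.14 against 1.14, 1.38 and 2.43 in experiment 2, where the groups overlapped. The 3 lower rows were DNMBP-AS1 (-0.33, SE 0.33), MKX-AS1 (-0.27) and HOXA-AS2 (-0.18).

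There are 9 antisense rows at genes listed as p53 targets. FAS codes for a death receptor, and its row had 397 and 493 reads under DMSO with water in experiment 1 and 1246 and 643 under Nutlin-3a. Its log2 change was 0.84 (SE 0.23, adjusted p = 1 by limma, 0.0599 with the block), and it was higher in 5 of 5 pairs. FAS-AS1 had 6 reads in all, of which 1 was in a Nutlin-3a with water library. At this depth 3 reads are 0.0470 to 0.160 RPM, so a change of FAS-AS1 was not detectable. FAM212B, of log2 change 0.85 (higher in 5 of 5 pairs, 0.0829 adjusted with the block by limma), had 164 reads on FAM212B-AS1 over all libraries. ASTN2, ARHGEF3, FBXO22, TP73 and PRKX had antisense rows of 458, 179, 35, 14 and 6 reads, all below the level tested. The log2 changes of these sense genes were 0.45 for ASTN2 (higher in 5 of 5 pairs), 0.38 for FBXO22 (3 of 5) and 0.29 for PRKX (4 of 5). ARHGEF3 (-0.23) and TP73 (-0.10) lay the other way, each lower in 4 of 5 pairs, and none of the 5 passed limma's test.

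The other p53-listed pairs could be tested. ZNF337 had a log2 change of 0.48 (SE 0.12, adjusted p = 1 by limma, 0.0674 with the block), and it was higher in 5 of 5 pairs. ZNF337-AS1, which faces its end and has another isoform row in experiment 2, had 23.5 and 22.3 RPM under DMSO and 25.2 and 11.6 under Nutlin-3a in experiment 1, and 2.70, 2.15 and 3.71 against 2.87, 3.35 and 3.69 in experiment 2. The groups overlapped in both experiments, and the log2 change was -0.01 (SE 0.16), higher in 2 of 5 pairs. ZNF561-AS1 had a change of 0.10 (SE 0.28) beside 0.10 (SE 0.18) for ZNF561, a divergent neighbour. Among the 26 detected antisense rows with a p53 decamer in the start window the median change was 0.04, and 16 were above 0.

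Peptide with Nutlin-3a was compared with water with Nutlin-3a to ask what the peptide does to the response. No antisense row was called by limma, and 0% of all rows were. At an unadjusted p under 0.05 there were 3 antisense rows, or 0.794% beside 0.501% of all rows, with 4 by limma-voom (1.06% beside 0.714%) and 22 with the block (5.82% beside 8.24%). Block and limma-voom together called 0 antisense rows and 0.0188% of all rows, with 26 antisense rows (6.88% beside 9.73%) at an unadjusted p under 0.05. The 3 antisense rows, named after their values were seen, were GAS6-AS1 (-0.42, SE 0.18), PRR7-AS1 (-0.37, SE 0.17) and TM4SF19-AS1 (-0.39, SE 0.18), each with an adjusted p of 1 by limma. The median log2 change was 0.02 for antisense rows (-0.03 in experiment 1 and 0.02 in experiment 2) and 0.04 for all rows. This comparison shares the Nutlin-3a with water libraries with the one above, so opposite changes of a row in both are not independent.

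Of the antisense rows, 14 were higher in all 5 pairs (3.70% beside 4.76% of all rows) and 10 lower (2.65% beside 2.54%). SLC25A25-AS1, which faces the end of a mitochondrial carrier gene, had 12.5 and 17.5 RPM with water and 7.59 and 7.62 with peptide in experiment 1. In experiment 2 it had 21.0, 11.7 and 24.1 with water and 18.4, 10.6 and 20.6 with peptide, so the groups overlapped there. Its log2 change was -0.48 (SE 0.23, adjusted p = 1 by limma), -1.01 in experiment 1 and -0.16 in experiment 2. MMP25-AS1, at a membrane metalloproteinase gene, had 4.93 and 6.48 RPM with water and 2.57 and 3.15 with peptide in experiment 1, and 10.5, 6.65 and 9.43 against 9.09, 5.49 and 9.49 in experiment 2. Its change was -0.44 (SE 0.21), and -0.97 and -0.12 in the 2 experiments. It was lower in 5 of 5 pairs after scaling, although the RPM of the last pair lay the other way.

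TMEM147-AS1, head to head with the gene of an endoplasmic reticulum membrane protein, had 23.1 and 24.5 RPM with water and 16.9 and 18.1 with peptide in experiment 1. In experiment 2 it had 14.8, 28.6 and 16.7 with water against 13.3, 22.6 and 15.3 with peptide, a log2 change of -0.29 (SE 0.25) over both. LHX4-AS1 had 6.23 and 6.42 RPM with peptide in experiment 1 and 5.00, 5.03 and 5.16 in experiment 2, below the water libraries named above in both experiments (log2 change -0.23, SE 0.14). PLCG1-AS1, at the gene of phospholipase C gamma, had 0.701 and 0.613 RPM with water and 1.02 and 2.53 with peptide in experiment 1, and 2.14, 0.586 and 2.58 against 3.27, 0.928 and 2.94 in experiment 2 (log2 change 0.59, SE 0.37). On leaving out 1 library its change ranged from 0.372, without Nutlin-3a with peptide replicate 2 of experiment 1, to 0.859. HOXA-AS2, between genes of the HOXA cluster, had a change of 0.37 (SE 0.27). RAP2C-AS1, TRIM52-AS1 and C3orf67-AS1 were at 0.18 to 0.27. RAP2C-AS1 had 19.1 and 7.23 RPM with water in experiment 1, the second in the library lowest in antisense reads, and 17.8 and 13.5 with peptide. Without that library its log2 change was 0.07.

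**Figure D5:**
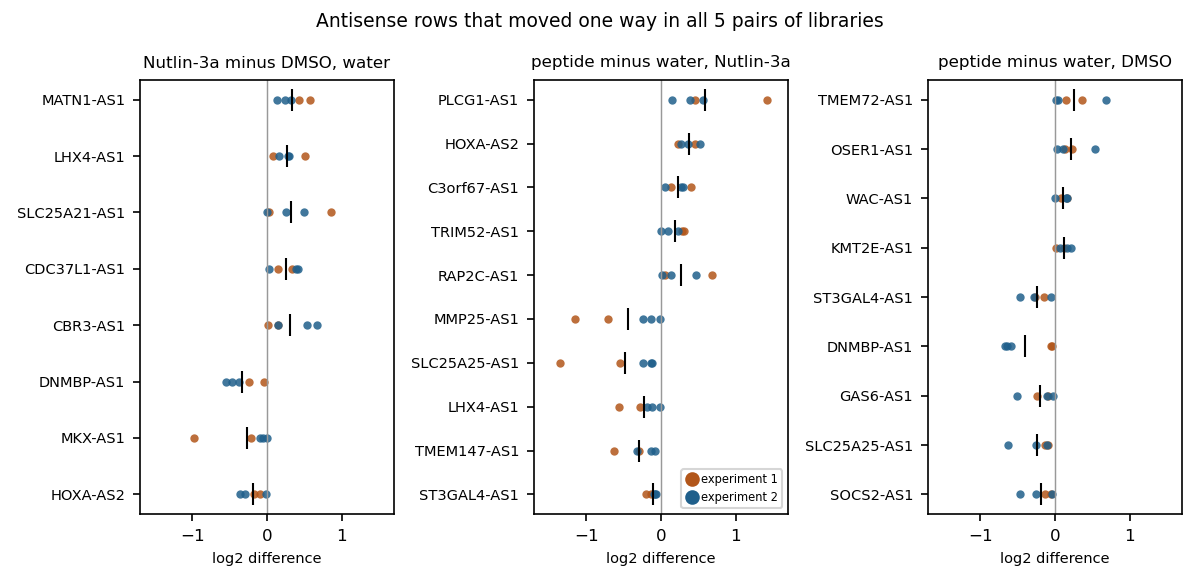
Log2 difference (x axis) in each of 5 same-numbered pairs of libraries for antisense rows (y axis) that moved one way in all 5, up to 5 each way by p-value, in 3 comparisons; points are pairs, colour gives the experiment and the bar the fitted change. SLC25A25-AS1 and MMP25-AS1 stand furthest left in experiment 1, and no row shown passed the test.

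Peptide was compared with water under DMSO, that is, without Nutlin-3a. No antisense row and 0% of all rows passed limma's test, and at an unadjusted p under 0.05 there was none of the antisense rows (0.0877% of all rows), none by limma-voom (0.107% of all rows) and 9 with the block (2.38% beside 1.12%), or 9 with the block and limma-voom (2.38% beside 1.2%). The median log2 change of the antisense rows was -0.02 and that of all rows 0.03, and 42.1% of antisense rows lay above 0 beside 62.9% of all rows. There were 10 antisense rows higher in all 5 pairs (2.65% beside 6.86%) and 20 lower (5.29% beside 2.80%).

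ST3GAL4-AS1, named for a sialyltransferase gene that it does not overlap, had 4.38 and 4.66 RPM with water and 3.44 and 4.17 with peptide in experiment 1, and 1.95, 2.47 and 1.63 against 1.31, 1.95 and 1.43 in experiment 2. Its log2 change was -0.24 (SE 0.14, adjusted p = 0.9999 by limma), and its unadjusted p of 0.0947 was the smallest of the antisense rows here. DNMBP-AS1, inside the gene of a CDC42 exchange factor, had 1.55, 0.420 and 1.04 RPM with water and 0.885, 0.0737 and 0.401 with peptide in experiment 2. In experiment 1 it had 3.27 and 2.79 against 3.03 and 2.69, so the groups overlapped in both experiments (log2 change -0.40, SE 0.33). GAS6-AS1, SLC25A25-AS1 and SOCS2-AS1 were at -0.19 to -0.24. TMEM72-AS1, OSER1-AS1, WAC-AS1 and KMT2E-AS1 were among the higher ones, at 0.11 to 0.25. The difference between the peptide's effects with and without Nutlin-3a was called in no antisense row by limma. At an unadjusted p under 0.05 there were 0 of 378 antisense rows, beside 28 of 15958 rows (0.175%). With the block there were 10 of 378, beside 292 of 15958 rows (1.83%).

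Antisense and sense changes were weakly related. Over the 325 pairs, as a description across rows that share their libraries, Pearson's r of the log2 changes was 0.16 for Nutlin-3a, 0.25 for the peptide under Nutlin-3a and 0.06 for the peptide under DMSO. In the 108 divergent pairs it was 0.03, 0.21 and -0.07, and in the 54 tail-to-tail pairs 0.25, 0.44 and 0.26. Divergent pairs of other rows up to 5 kb apart, 1007 pairs with no antisense row, had 0.14, 0.35 and 0.02. In single pairs of libraries, r for Nutlin-3a was 0.468 in replicate 2 of experiment 1 and 0.0109 to 0.0992 in the other 4, and for the peptide under Nutlin-3a 0.446 there and -0.0244 to 0.138 in the others. Both hold the Nutlin-3a with water library lowest in antisense reads. Without that library r was 0.19 for Nutlin-3a and 0.091 for the peptide under Nutlin-3a. Correlations this weak are given as a description only.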

How the data were processed

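For each experiment the authors deposited a table with a row per symbol, 1 RefSeq isoform each. The labels' list of tools and builds, from the submitters' processing notes, holds HISAT2, bedtools, limma and hg38. It gives no role or version, and how strand was used in counting is not given in the sources used here. The deposited values are in another unit than the design assumed, so the test was run on values derived from them: each is the reads per 1000000 reads in rows (RPM), divided by (stop − start/1000). Multiplying by that divisor gave RPM, and reads came out whole for 100% of values at a tolerance of 0.001. Floors of 3 reads cover counting error only.

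Libraries were scaled by trimmed means of log ratios (TMM). Log2(RPM + 0.5) of the 15958 rows with a mean of at least 0.5 RPM was fitted with limma 3.58.1 in R 4.3.3 with a trend, condition and experiment terms, and Benjamini-Hochberg adjustment over all rows. A fold change on that scale understates low rows. The fit was also run on simulated data, in which same-numbered libraries did not deviate together. That run therefore does not bear on the spread or the calls in these data. Levels between genes are per kb of genomic span. Same-numbered libraries deviated together (r of 0.286 to 0.585 in experiment 1 and 0.877 to 0.940 in experiment 2), so the numbers were treated as pairing them, a hint from the data that no label states.

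Members and lists were chosen with earlier results of these data known. Named are the 12 highest rows, up to 5 each way by p among rows moving one way in all 5 pairs, rows at p53-listed genes and detected rows with a described role, each with its sense gene. Not all of these are named in the text, and 1 row that the rule takes is not reported here. UNC5B-AS1, LMLN-AS1, RPL34-AS1, PRC1-AS1, DLGAP1-AS1, DLGAP1-AS2, LMCD1-AS1, C2-AS1, TMEM254-AS1, LPP-AS1, HCFC1-AS1, PAX8-AS1, NR2F1-AS1, NR2F2-AS1, HOXD-AS2, PAXIP1-AS1, PAXIP1-AS2, PRR7-AS1 and TM4SF19-AS1 were chosen after their values were seen. Alternatives were other scalings, filters and pseudocounts, limma-voom, a replicate block, single experiments, structural RNA rows left out and each library left out.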

Additional observations from a re-analysis of the deposited data

How the results depend on the processing

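No antisense row was called under any of the 36 settings run in any comparison. With the replicate number as a block, antisense calls stayed at 0. The design is balanced over replicate numbers, so the block leaves each fitted change as it was, and r between antisense and sense changes is 0.164, 0.253 and 0.0634 with it by construction, which shows no stability. Over all rows, calls went from 0 to 15 for Nutlin-3a, 3 for the peptide under Nutlin-3a and 4 for the difference of the peptide's effects with the block and limma-voom, to 5 for Nutlin-3a with the block and without the Nutlin-3a with water library of experiment 1 replicate 2, and to 1 for each peptide comparison in experiment 1 alone, with or without the block. These block settings other than the plain one were chosen after seeing the data. The cause was not tested.

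Leaving out 1 library each, the median log2 change of antisense rows was -0.0465 to 0.0494 for Nutlin-3a, -0.0277 to 0.0516 for the peptide under Nutlin-3a, -0.0762 to 0.0278 for the peptide under DMSO and -0.0201 to 0.0903 for the difference, so none of these medians has a stable sign. Without DMSO with water replicate 2 of experiment 2 the peptide's median under DMSO was -0.0762, and without DMSO with peptide replicate 2 it was 0.0278. In pairs whose spans do not overlap, r for the peptide under DMSO was -0.036. On leaving out 1 library, a choice added after seeing the data for this measure, r ranged from 0.107 to 0.256 for Nutlin-3a, 0.091 to 0.371 for the peptide under Nutlin-3a and 0.00548 to 0.203 for the peptide under DMSO. Of 34 named changes, 30 kept their sign in every setting that tested the row, but 26 of the 34 moved by over 1.5 times on leaving out some 1 library. For Nutlin-3a, HOXA-AS2 ranged from -0.343 to -0.0126 (the latter without Nutlin-3a with water replicate 2 of experiment 2) and DNMBP-AS1 from -0.466 to -0.146 (without DMSO with water replicate 1 of experiment 2). For the peptide under Nutlin-3a, RAP2C-AS1 ranged from 0.0673 (without Nutlin-3a with water replicate 2 of experiment 1) to 0.401. For the peptide under DMSO, KMT2E-AS1 ranged from 0.0199 (without DMSO with water replicate 1 of experiment 2) to 0.196 and OSER1-AS1 from 0.0516 (without DMSO with water replicate 2 of experiment 2) to 0.301. ZNF337-AS1 for Nutlin-3a turned to 0.129 in experiment 2 alone, 0.113 with the block and without that Nutlin-3a library, 0.0132 without structural RNA rows, 0.00351 at a pseudocount of 0.1, and ranged from -0.092 to 0.129 on leaving out 1 library, reversed without DMSO with water replicate 3 of experiment 2 (0.0424) and without Nutlin-3a with water replicate 2 of experiment 1 (0.129). For the peptide under DMSO it was 0.00776 in experiment 1 alone. ZNF561-AS1 for Nutlin-3a was -0.0791 in experiment 2 alone, and for the peptide under DMSO 0.00521 in experiment 1 alone, 0.00429 at a pseudocount of 5, 0.0808 with the block and limma-voom, and ranged from -0.261 to 0.124 on leaving out 1 library. The lowest adjusted p of a named change in any setting was 0.125. Over all antisense rows the lowest was 0.0844 by limma, for Nutlin-3a in experiment 2 alone with the block. Depth limits rows under 0.5 RPM, which are 601 of 979.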
